A study of Mus musculus with 2 samples.

Results

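The IL-6 family is followed here through 9 genes of hind limb muscle in mdx mice: the ligands Il6, Lif, Osm and Clcf1, the receptor chains Il6ra, Il6st, Osmr and Lifr, and the feedback inhibitor Socs3. They were chosen by symbol from the 24984 gene symbols of the count tables, and all 9 were found in both libraries. Live mononuclear cells of mdx muscle were profiled by droplet single cell RNA-seq. This is a tissue that lacks dystrophin and passes through repeated rounds of damage and repair. Mice of both groups carried the mdx mutation, the tamoxifen-inducible Cre of Pax7CreERT2, which acts in muscle stem cells (MuSCs), and the R26YFP reporter. The control group (Ctrl) had the alleles Yy1 +/+ and the double knockout group (dKO) had Yy1 f/f, so that tamoxifen, injected into both groups as young adults, removed the transcription factor YY1 from the MuSCs of dKO mice only. Muscles were taken about a month later and the cells of several mice per group were pooled. Each group is therefore 1 library, so differences between groups could neither be checked in replicates nor tested.

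Members of the family signal through gp130, the shared receptor chain that Il6st encodes. IL-6 uses the IL-6 receptor alpha chain (Il6ra) with gp130, LIF the LIF receptor (Lifr) with gp130, and oncostatin M (Osm) gp130 with the oncostatin M receptor (Osmr) or the LIF receptor, while cardiotrophin-like cytokine (Clcf1) acts through the CNTF receptor with gp130 and the LIF receptor. The bound complexes activate JAK kinases and STAT3, and STAT3 induces Socs3, whose protein binds gp130 and the JAKs and shuts the signal off. In muscle, IL-6 and LIF act on MuSCs, stromal cells and infiltrating macrophages, and oncostatin M is a classical product of activated myeloid cells.

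RNA molecules were counted by unique molecular identifiers (UMIs), of which 45556596 came from 4527 Ctrl cells and 33815155 from 3483 dKO cells, with medians of 7697 and 7615 UMIs per cell. After removal of cells with under 500 genes and of those with the highest doublet scores, 4010 Ctrl and 3079 dKO cells remained, and 6 of their barcodes occur in both libraries. Before the doublet step the cells were equal in number to those the study kept after its own doublet removal, so doublets may already have been gone. Clustering without the family's own genes gave 23 clusters in 12 classes, named "like" after their markers. Of these, 10 had at least 30 cells in each library and were compared. The largest were MO/MP-like cells (monocytes and macrophages, 1529 Ctrl and 1168 dKO cells), FAP-like cells (fibro-adipogenic progenitors, the stromal cells of muscle, 1127 and 1180 cells) and EC-like cells (endothelial cells, 464 and 179 cells). MuSC-like cells were few (116 and 30). Levels are in CPM, a gene's UMIs per 1000000 UMIs of that class and library. Intervals are 95% intervals, exact Poisson for levels, exact binomial for shares and conditional exact binomial for ratios. They cover counting error only, and a ratio is called past 1.5-fold by size alone.

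Yy1 itself was read first, as a check of the labels. In MuSC-like cells it was counted with 369 UMIs in Ctrl (160 CPM) and 3 UMIs in dKO (4.85 CPM), a dKO to Ctrl ratio of 0.0303 (0.00623 to 0.0894). Yy1 stayed near its Ctrl level elsewhere, at 1.07 of it in FAP-like, 1.10 in MO/MP-like and 0.992 in EC-like cells, which are not known to express Pax7.

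The genes lie on several chromosomes of the mouse genome (GRCm38, GENCODE M21), with 2 neighbouring pairs among them. Osm (chr11:4236420-4241026) and Lif (chr11:4257557-4272514) follow each other on the plus strand. Osmr (chr15:6813577-6874969, minus strand) and Lifr (chr15:7090614-7197489, plus strand) are also close. The members of the first pair were counted mainly in different cells. Osm UMIs came mainly from MO/MP-like cells, which held 89.3% of them in Ctrl (87.0 to 91.2) and 90.5% in dKO (88.3 to 92.4), and Lif UMIs from FAP-like cells, which held 66.9% (62.6 to 71.0) and 87.7% (85.1 to 90.0).

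**Figure D1:**
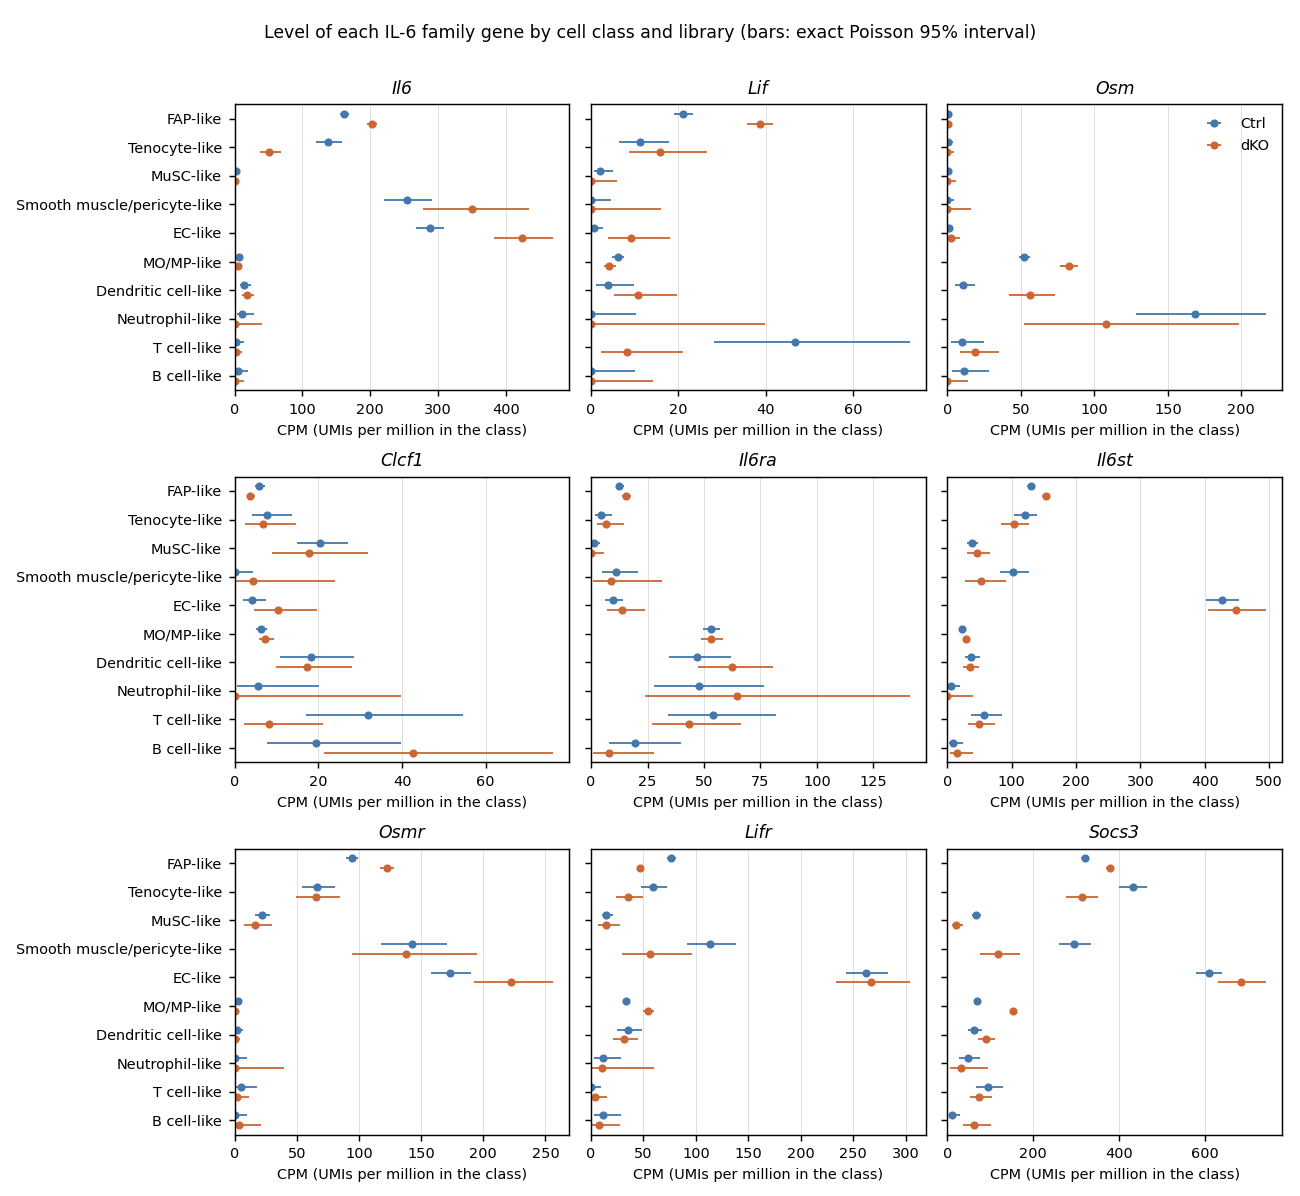
Each panel plots 1 gene, with its level in CPM on the horizontal axis (linear, from 0, with a scale of its own) and 10 cell classes on the vertical axis; points are the Ctrl (blue) and dKO (orange) libraries and bars the exact Poisson 95% interval. Il6, Il6st, Osmr, Lifr and Socs3 sit highest in EC-like cells in dKO (Il6 at 425 CPM), Osm in MO/MP-like and neutrophil-like cells, and the dKO points lie to the right of Ctrl for Lif in FAP-like cells and for Osm, Lifr and Socs3 in MO/MP-like cells.

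Il6, the founding ligand, was a stromal and vascular transcript in both libraries. Its level in FAP-like cells was 162 CPM in Ctrl (156 to 168) and 203 CPM in dKO (196 to 210). EC-like cells had 288 CPM in Ctrl (267 to 309) and 425 CPM in dKO (382 to 470). Smooth muscle/pericyte-like cells had 254 CPM (221 to 291) and 350 CPM (278 to 435), so that the highest pair, EC-like and smooth muscle/pericyte-like, overlapped in their counting intervals in both libraries. Tenocyte-like cells, which make tendon matrix, went the other way, with 138 CPM in Ctrl (211 UMIs) and 50.8 CPM in dKO (45 UMIs). Thus the dKO to Ctrl ratio was 1.25 in FAP-like (1.19 to 1.32), 1.48 in EC-like (1.30 to 1.67), 1.38 in smooth muscle/pericyte-like (1.05 to 1.79) and 0.368 in tenocyte-like cells (0.261 to 0.510). With doublets kept, the log2 ratio in smooth muscle/pericyte-like cells turned from 0.46 to -0.31, so its direction depends on that step. One Ctrl tenocyte-like cell held 45 of the 211 UMIs, and the log2 ratio of -1.44 became -1.46 without the leading cell of each library and -0.73 as a mean of each cell's own CPM.

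Il6 was lower in blood-derived classes. Dendritic cell-like cells had 14.4 CPM in Ctrl and 18.3 CPM in dKO, and neutrophil-like cells 11.2 CPM in Ctrl (4 UMIs) and 0 UMIs in dKO. MO/MP-like cells had 5.95 CPM in Ctrl and 4.33 CPM in dKO, and T cell-like and B cell-like cells between 0 and 5.52 CPM. MuSC-like cells had 5 UMIs in Ctrl and 0 UMIs in dKO, where 3 UMIs would be 4.85 CPM, so a level below that was not detectable. With each cell thinned to 2000 UMIs, an Il6 UMI was found in 15.9% of FAP-like cells in Ctrl and in 22.4% in dKO (33.2% and 41.3% before thinning). In B cell-like cells, which are not a usual source of Il6 transcript in muscle, the thinned share was 0% in both libraries, at median depths of 2318 and 2556 UMIs against 12155 and 12118 in FAP-like cells. FAP-like cells held 65.8% of all Il6 UMIs in Ctrl (64.3 to 67.3) and 84.3% in dKO (83.1 to 85.4), and EC-like cells 19.4% and 9.26%. Over the same libraries FAP-like cells made up 28.1% and 38.3% of cells and EC-like cells 11.6% and 5.81%, so these shares follow cell numbers as well as level.

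Lif, which signals through Lifr and gp130 and is known to act on myogenic cells and nerve, differed most between the libraries in FAP-like cells among the 3 member ligands with at least 50 UMIs there. It had 338 UMIs in Ctrl (21.1 CPM, 18.9 to 23.5) and 643 UMIs in dKO (38.7 CPM, 35.8 to 41.8), a ratio of 1.83 (1.61 to 2.10). The share of FAP-like cells with a Lif UMI was 2.73% in Ctrl and 3.91% in dKO after thinning, and 9.32% and 12.5% before, so most cells of the class had no Lif UMI. No Lif UMI was found in smooth muscle/pericyte-like, neutrophil-like or B cell-like cells of either library. In MO/MP-like cells the level was low, 6.09 CPM in Ctrl and 4.12 CPM in dKO (ratio 0.677, 0.451 to 0.998), and the log2 ratio of -0.56 was -0.27 without the S100a9 and S100a8 led sub-cluster. T cell-like cells had 19 UMIs in Ctrl (46.7 CPM) and 4 UMIs in dKO (8.25 CPM), a ratio of 0.177 (0.0437 to 0.531).

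Osm, the myeloid ligand, was highest in neutrophil-like cells in both libraries, with 168 CPM in Ctrl (129 to 217) and 108 CPM in dKO (51.8 to 199, 10 UMIs). MO/MP-like cells had 52.2 CPM in Ctrl (48.6 to 56.0) and 82.5 CPM in dKO (76.8 to 88.6), and these intervals did not overlap (ratio 1.58, 1.43 to 1.75). In dKO, but not in Ctrl, the interval of neutrophil-like cells held that of MO/MP-like cells. Dendritic cell-like cells, which present antigen to T cells, had 11 UMIs in Ctrl (10.5 CPM) and 52 UMIs in dKO (56.0 CPM), a ratio of 5.32 (2.74 to 11.3), of which 14 dKO UMIs were in 1 cell. Its log2 ratio of 2.41 was 1.21 after thinning, when 4.76% of Ctrl and 5.0% of dKO cells of the class had an Osm UMI. In neutrophil-like cells the ratio was 0.641 and its interval (0.293 to 1.26) held 1. FAP-like cells, which are not a source of Osm, showed 10 UMIs in Ctrl and 7 in dKO. After thinning, 0.188% and 0.0888% of them had an Osm UMI, against 8.13% and 12.2% of MO/MP-like cells, at median depths of 8141 and 6936 UMIs in MO/MP-like cells.

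Clcf1, a ligand of the CNTF receptor, was rare everywhere. Its highest level by class with at least 20 UMIs over both libraries was in MuSC-like cells in Ctrl (20.4 CPM, 14.95 to 27.1, 47 UMIs), where dKO had 17.8 CPM (11 UMIs), and in dendritic cell-like cells (18.2 and 17.2 CPM). The intervals of MuSC-like and dendritic cell-like cells overlapped in both libraries. In FAP-like cells it had 95 UMIs in Ctrl (5.93 CPM) and 63 UMIs in dKO (3.79 CPM), a ratio of 0.639 (0.457 to 0.888). One Ctrl cell held 8 of the 95 UMIs, and the log2 ratio of -0.65 became -0.56 without the leading cell of each library, -0.53 with doublets kept and -0.25 after thinning each cell to 2000 UMIs, all under 1.5-fold. EC-like cells had 11 and 9 UMIs, and the interval of their ratio (2.49, 0.912 to 6.61) held 1.

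Among the receptor chains, Il6ra, the chain that binds IL-6 itself, was counted mainly in MO/MP-like cells. It had 53.1 CPM in Ctrl and 53.3 CPM in dKO in MO/MP-like cells (ratio 1.00, 0.895 to 1.13), 46.9 and 62.5 CPM in dendritic cell-like cells, 47.7 and 64.8 CPM in neutrophil-like cells and 54.1 and 43.3 CPM in T cell-like cells. The intervals of these classes overlapped in each library. B cell-like cells were lower, with 19.3 CPM in Ctrl (7 UMIs) and 7.74 CPM in dKO (2 UMIs). FAP-like cells had 12.6 and 15.6 CPM, and MuSC-like cells 3 UMIs and 0 UMIs. MO/MP-like cells held 69.7% of Il6ra UMIs in Ctrl and 56.8% in dKO. The FAP-like share was 17.6% and 30.02%.

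Il6st, the shared signalling chain gp130, was highest in EC-like cells, with 427 CPM in Ctrl (403 to 453) and 449 CPM in dKO (405 to 495). FAP-like cells came next, with 130 CPM in Ctrl (124 to 136) and 153 CPM in dKO (147 to 159), beside tenocyte-like cells with 121 CPM (104 to 140) and 104 CPM (83.7 to 127), so that the intervals of these classes overlapped in Ctrl and not in dKO. MO/MP-like cells had 22.4 CPM in Ctrl and 28.2 CPM in dKO. The ratios were 1.17 in FAP-like (1.11 to 1.25), 1.26 in MO/MP-like (1.07 to 1.48) and 1.05 in EC-like cells (0.934 to 1.18), none of them past 1.5-fold. After thinning, the log2 ratio in MO/MP-like cells turned from 0.33 to -0.26. In smooth muscle/pericyte-like cells the level was 102 CPM in Ctrl and 51.8 CPM in dKO, on 84 and 12 UMIs (ratio 0.507, 0.252 to 0.933), but the log2 ratio of -0.98 was -0.07 with doublets kept.

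Osmr, the chain that pairs with gp130 to bind oncostatin M, was counted mainly in stroma and vessels. EC-like cells had 173 CPM in Ctrl (158 to 190) and 223 CPM in dKO (192 to 256), smooth muscle/pericyte-like cells 142 and 138 CPM, FAP-like cells 94.6 CPM (89.9 to 99.5) and 122 CPM (117 to 128), and tenocyte-like cells 66.6 and 65.5 CPM. The ratio was 1.29 in FAP-like (1.21 to 1.38) and 1.28 in EC-like cells (1.08 to 1.52), and about 1 in smooth muscle/pericyte-like (0.971) and tenocyte-like cells (0.982). MO/MP-like cells, the main source of the ligand, had 38 Osmr UMIs in Ctrl (2.54 CPM) and 6 in dKO (0.650 CPM). Summed levels of the 10 FAP markers in the same MO/MP-like cells were 260 CPM in Ctrl and 173 CPM in dKO, 9 of the 10 markers were lower in dKO and none was at 0. Their part in this low Osmr count, and in the Lif levels of MO/MP-like cells given above, was not tested.

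Lifr, the receptor of LIF, differed in opposite directions in stroma and macrophages. In FAP-like cells it had 1228 UMIs in Ctrl (76.7 CPM, 72.4 to 81.1) and 776 UMIs in dKO (46.7 CPM, 43.5 to 50.1), a ratio of 0.609 (0.556 to 0.667). Tenocyte-like cells had 58.8 CPM in Ctrl and 35.0 CPM in dKO (ratio 0.595, 0.382 to 0.904) and smooth muscle/pericyte-like cells 113 and 56.2 CPM (ratio 0.496, 0.255 to 0.891, with 13 UMIs in dKO). Under alternatives these calls were lost once each, the tenocyte-like log2 ratio of -0.75 being -0.53 with doublets kept and the smooth muscle/pericyte-like one of -1.01 being -0.40 after thinning. MO/MP-like cells had 503 UMIs in Ctrl (33.6 CPM, 30.8 to 36.7) and 505 UMIs in dKO (54.7 CPM, 50.04 to 59.7), a ratio of 1.63 (1.44 to 1.84), whose log2 of 0.70 was under 1.5-fold as a mean of cells' own CPM (0.41) and with equal sub-cluster shares (0.48). EC-like cells were highest in both libraries, with 263 CPM in Ctrl (244 to 283) and 267 CPM in dKO (234 to 304), a ratio of 1.02 (0.874 to 1.18). The thinned share of FAP-like cells with a Lifr UMI was 14.96% in Ctrl and 8.88% in dKO, and that of MO/MP-like cells 8.27% and 13.2%.

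The FAP-like class thus held more Lif and less Lifr relative to all its UMIs in dKO. Of the 8 members with at least 50 UMIs in that class, 1 was past 1.5-fold higher (Lif) and 2 were past 1.5-fold lower (Lifr and Clcf1). Of the 11512 genes that reached 50 UMIs in the FAP-like class, 3.29% were past 1.5-fold higher and 4.2% past 1.5-fold lower. The median log2 ratio was 0.28 over the members and -0.053 over all genes. In MO/MP-like cells 3 of 8 members were past 1.5-fold higher (Socs3, Lifr and Osm) and 0 lower, beside 4.88% of 10343 genes higher and 6.37% lower, with medians of 0.28 and -0.025. The count of members higher was 1, Socs3, as a mean of cells' own CPM and with equal sub-cluster shares, and the count lower was 2 with doublets kept, thinned, and with equal shares. In EC-like cells 0 of 5 members were past 1.5-fold in either direction, beside 5.81% of 6762 genes higher and 11.1% lower, with medians of 0.17 and -0.05. Osmr in MO/MP-like cells stayed under 50 UMIs and was not counted.

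**Figure D2:**
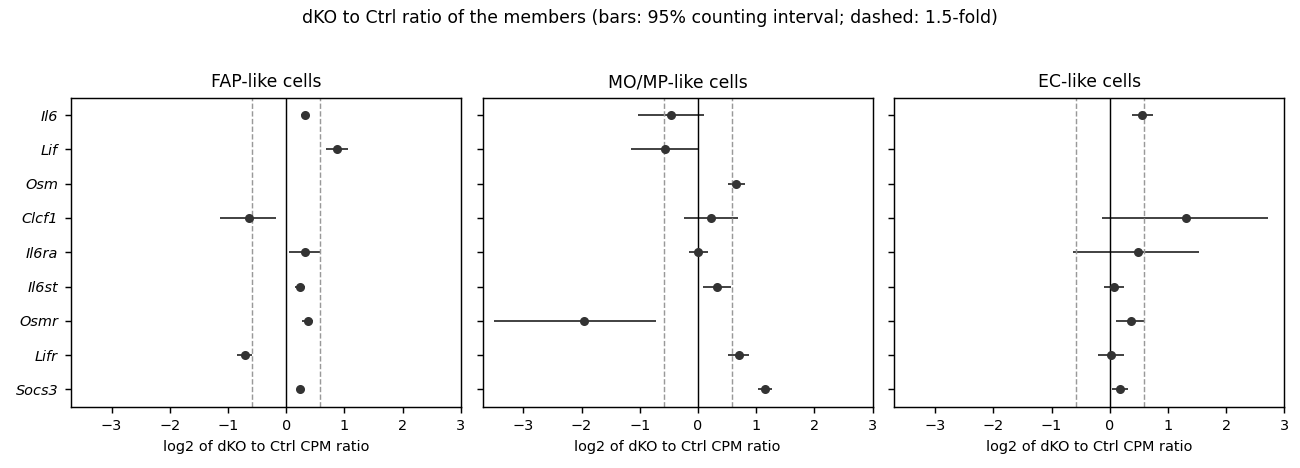
The log2 of the dKO to Ctrl CPM ratio is on the horizontal axis and the genes on the vertical axis, for members with at least 20 UMIs over both libraries in FAP-like, MO/MP-like and EC-like cells; bars are 95% counting intervals, and dashed lines mark 1.5-fold. Lif lies right and Lifr left of the dashed lines in FAP-like cells, Socs3 is farthest right in MO/MP-like cells (1.15), and Osmr is farthest left there (-1.97, on 38 Ctrl and 6 dKO UMIs).

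Co-detection of receptor chains in 1 cell depended on depth. Before thinning, over the same cells, Il6st and Osmr were found together in 48.0% of FAP-like cells in Ctrl and 52.6% in dKO, and Il6st and Lifr in 37.0% and 31.9%. In EC-like cells the unthinned shares were 37.5% and 41.3% for Il6st with Osmr, and 42.6% and 48.3% for Il6st with Lifr. After thinning, Il6st and Osmr were found together in 4.89% (3.68 to 6.37) of FAP-like cells in Ctrl and 5.60% (4.33 to 7.10) in dKO, and Il6st and Lifr together in 4.52% (3.35 to 5.94) and 2.58% (1.73 to 3.68). Thinned EC-like cells had Il6st and Lifr together in 16.9% and 17.5%, and Il6st and Osmr in 12.3% and 18.9%. In MO/MP-like cells Il6st and Il6ra were together in 0.726% of Ctrl and 0.380% of dKO cells, before thinning in 8.27% and 7.32%. Cells with under 2000 UMIs do not enter these thinned shares (64 Ctrl and 54 dKO FAP-like, 67 and 36 EC-like, 151 and 116 MO/MP-like cells).

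Socs3, which cells induce when STAT3 is active and which then blocks gp130, had 9152 UMIs in Ctrl and 8796 in dKO. EC-like cells were highest, with 608 CPM in Ctrl (579 to 639) and 685 CPM in dKO (631 to 742). Tenocyte-like cells had 432 CPM (400 to 466) and 313 CPM (277 to 352), FAP-like cells 320 CPM (311 to 329) and 379 CPM (370 to 389), and smooth muscle/pericyte-like cells 296 CPM (260 to 335) and 117 CPM (76.9 to 170). In dKO, FAP-like cells thus stood above tenocyte-like cells, while in Ctrl the order was the reverse. The tenocyte-like log2 ratio of -0.47 was -0.14 with doublets kept, so the order in dKO may depend on that step.

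Socs3 in MO/MP-like cells had 1027 UMIs in Ctrl (68.7 CPM, 64.5 to 73.0) and 1408 UMIs in dKO (153 CPM, 145 to 161). The ratio of 2.22 (2.05 to 2.41) was the largest of the 8 members counted in this class. In MuSC-like cells, where Yy1 had been deleted, Socs3 had 153 UMIs in Ctrl (66.3 CPM) and 13 UMIs in 30 dKO cells (21.0 CPM), a ratio of 0.317 (0.165 to 0.559), and 1 Ctrl cell held 35 of the 153. Smooth muscle/pericyte-like cells had a ratio of 0.394 (0.255 to 0.588), whose log2 of -1.34 was -0.51 and under 1.5-fold with doublets kept. Tenocyte-like cells had a ratio of 0.724 (0.627 to 0.834), whose log2 of -0.47 was -0.14 with doublets kept. The ratio was 1.19 (1.14 to 1.23) in FAP-like and 1.13 (1.02 to 1.24) in EC-like cells. B cell-like cells had 4 UMIs in Ctrl and 16 in dKO (ratio 5.60, 1.81 to 23.0), and dendritic cell-like cells a ratio of 1.44 (1.03 to 2.02).

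Socs3 is also induced rapidly when tissue is taken apart, so a fixed list of 15 immediate early and heat shock genes, such as Fos, Atf3 and Hspa1a, was summed in each class. The sum was 9032 CPM in Ctrl and 11910 CPM in dKO MO/MP-like cells (ratio 1.32), and 15 of 15 genes were higher in dKO. In FAP-like cells the ratio was 0.934 with 6 of 15 higher, in EC-like cells 0.925 with 5, in smooth muscle/pericyte-like cells 0.821 with 5 and in tenocyte-like cells 0.877 with 4. In MuSC-like cells it was 0.946 with 6, but single genes there went in both directions. The ratio was 1.04 for Hspa1a and 1.06 for Hspa1b, the genes of the list with most UMIs. It was 0.220 for Fosb, 0.348 for Nr4a1, 0.360 for Ier3 and 0.528 for Fos, and 1.48 for Jun and 1.41 for Dnajb1. The part of this list in the Socs3 and Osm ratios of MO/MP-like cells was not tested, nor was its part in the member ratios of the other classes. Without the MO/MP-like sub-cluster highest in these genes (a choice made after the values were seen) the log2 ratios were 1.07 for Socs3 and 0.76 for Osm, against 1.15 and 0.66 with it. The 8 neutrophil markers summed to 2780 CPM in Ctrl and 121 CPM in dKO MO/MP-like cells, with 7 of 8 lower in dKO and none at 0, and without the sub-cluster led by S100a9 and S100a8 the log2 ratios were 1.11 and 0.63.

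The promoter window of Socs3 is shown because this is the member that STAT3 itself is known to induce and the one with the largest MO/MP-like ratio. RefSeq windows of 300 bases (250 before to 50 after the transcription start, GRCm38.p6) were matched for 7 of the 9 members, as 8 windows, with no entry for Osm and Clcf1. They were searched for TTCNNNGAA, the palindrome that STAT factors prefer, which reads the same on both strands. The Socs3 window, chr11:117969317-117969616 on the minus strand, is printed 5′ to 3′ with the match in capitals, beginning 154 bases before the RefSeq start. GENCODE M21 places the starts of Socs3 transcripts elsewhere, the protein-coding one 180 bases downstream of the RefSeq start and the farthest upstream, of a processed transcript, at position 117970047, so that the window lies inside the gene as M21 draws it.

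Socs3: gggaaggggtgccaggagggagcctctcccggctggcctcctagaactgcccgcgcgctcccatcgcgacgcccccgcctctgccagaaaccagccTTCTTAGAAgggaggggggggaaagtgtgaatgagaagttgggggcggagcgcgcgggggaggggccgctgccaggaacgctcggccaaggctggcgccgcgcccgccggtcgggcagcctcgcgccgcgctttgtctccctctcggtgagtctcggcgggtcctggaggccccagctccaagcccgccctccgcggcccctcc

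The other 7 windows, of Il6, Lif, Il6ra, Il6st, Osmr and Lifr, held no match. Of all 32851 RefSeq windows of this length 2726 held one (8.30%), so the match is a description of the letters in this window.

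Sub-clusters of FAP-like cells were made without the family's genes and are called by their leading genes. Lif was concentrated in the sub-cluster led by Il1rl1 and Cxcl5, which held 238 of the 338 Ctrl and 444 of the 643 dKO UMIs of the class, at 57.8 CPM (50.7 to 65.6) and 81.5 CPM (74.1 to 89.5). Lif itself is among the 10 leading genes of that sub-cluster, so this level describes it. FAP-like cells of this kind were 16.0% of the class in Ctrl and 19.3% in dKO. The ratio within it was 1.41 (1.20 to 1.66), within the Clu and Comp led sub-cluster 2.68 (1.56 to 4.84, 17 and 73 UMIs) and within the cycling cells led by Ccnb1 2.80 (1.69 to 4.73, 26 and 45 UMIs). In the Gdf10 and Inmt led sub-cluster, whose cells were shallow (medians of 1996 and 2247 UMIs), it rested on 3 and 24 UMIs. In the other 3 sub-clusters Lif was 6.79 and 6.95 CPM in the Zfp36 and Atf3 led one (ratio 1.02, 0.496 to 2.10), 5.36 and 7.26 CPM in the G0s2 and Fibin led one (1.35, 0.776 to 2.36) and 7 and 12 UMIs in the Dmkn led one, so that the interval of the ratio held 1 in the first 2 of these and the last was too low for a ratio. With equal sub-cluster shares in both libraries, the log2 ratio of Lif in FAP-like cells was 0.68 against 0.87.

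Il6 did not follow Lif among the FAP-like sub-clusters. In the Il1rl1 and Cxcl5 led sub-cluster it was 231 CPM in Ctrl (216 to 246) and 190 CPM in dKO (179 to 202), a ratio of 0.825 (0.755 to 0.902). In the G0s2 and Fibin led sub-cluster, the lowest, it was 23.7 and 47.2 CPM (ratio 1.99, 1.58 to 2.52), and in the Gdf10 and Inmt led sub-cluster 87.2 and 320.0 CPM (25 and 99 UMIs). The Clu and Comp led sub-cluster was among the highest, at 291 and 359 CPM, and its share of FAP-like cells was 12.5% in Ctrl and 18.2% in dKO. So was the Zfp36 and Atf3 led one, at 298 CPM in Ctrl and 328 CPM in dKO (ratio 1.10, 0.997 to 1.22). There the 15 immediate early and heat shock genes summed to 59590 and 61520 CPM, and their part in the Il6 level was not tested. With equal sub-cluster shares the log2 ratio of Il6 in FAP-like cells was 0.15, against 0.32 from the plain sums.

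Lifr was lower in dKO in 6 of 7 FAP-like sub-clusters. It was 108 CPM in Ctrl (99.4 to 117) and 60.7 CPM in dKO (53.2 to 69.0) in the G0s2 and Fibin led sub-cluster, 104 and 56.4 CPM in the Zfp36 and Atf3 led one, and 38.6 and 27.2 CPM in the Il1rl1 and Cxcl5 led one. The exception was the Clu and Comp led sub-cluster, with 57.9 and 65.2 CPM (ratio 1.13, 0.870 to 1.47). The interval of the ratio left out 1 in 3 of the 7, the G0s2, Zfp36 and Il1rl1 led ones. Socs3 was highest in the Zfp36 and Atf3 led sub-cluster, at 796 CPM in Ctrl (762 to 831) and 915 CPM in dKO (877 to 954), where the 15 immediate early and heat shock genes summed to 59590 and 61520 CPM. In the sub-cluster led by Dmkn, with Dpp4 and Pi16 among its leading genes, Socs3 was 420 CPM in Ctrl (382 to 460) and 229 CPM in dKO (205 to 255), against the direction of the class.

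**Figure D3:**
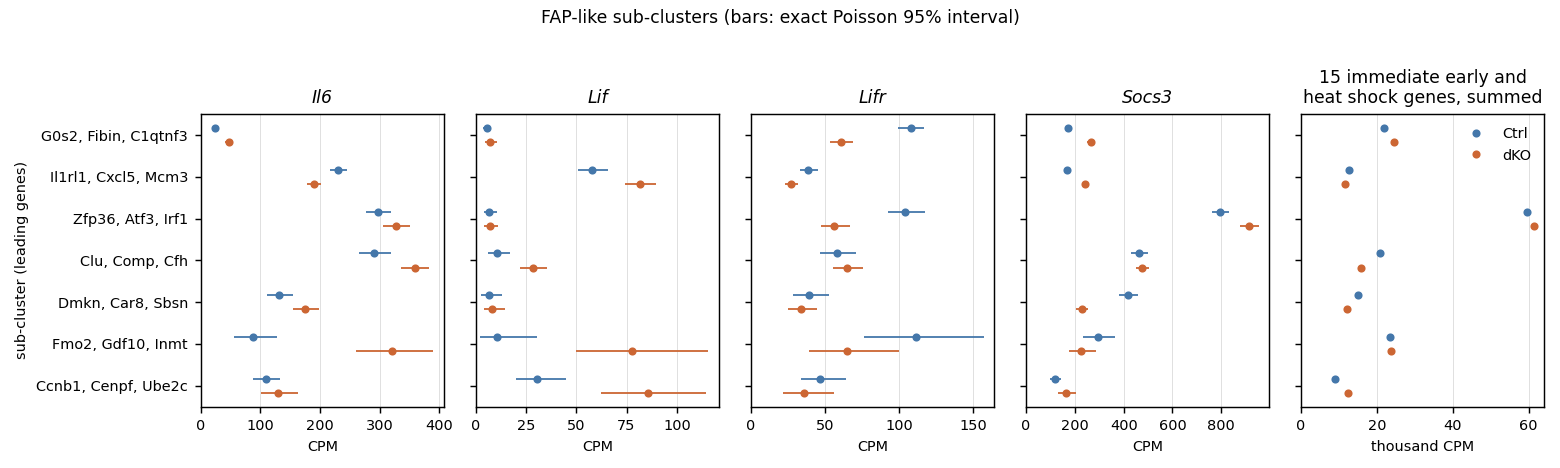
Levels in CPM of Il6, Lif, Lifr and Socs3 (linear horizontal axes from 0, bars the exact Poisson 95% interval) and the summed level of 15 immediate early and heat shock genes on an axis of its own, in 7 FAP-like sub-clusters named by their first leading genes, for Ctrl (blue) and dKO (orange). Lif is high in the Il1rl1 led row (57.8 and 81.5 CPM), Lifr lies further left in dKO in every row but the Clu led one, and Socs3 and the summed list peak together in the Zfp36 led row.

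Among MO/MP-like sub-clusters, Osm was highest in cells led by Osm, Nr4a1 and Atf3, at 518 CPM in Ctrl (446 to 599) and 448 CPM in dKO (378 to 528). Osm is itself one of the leading genes there, and the 15 immediate early and heat shock genes summed to 33410 and 34930 CPM. This sub-cluster made up 5.04% of Ctrl and 6.42% of dKO MO/MP-like cells and held 183 of 781 and 145 of 762 Osm UMIs. Elsewhere Osm was 86.3 and 128 CPM in the Vcan and Chil3 led sub-cluster (ratio 1.48, 1.16 to 1.88), 31.6 and 56.7 CPM in the Rnf128 and Spp1 led one (1.80, 1.36 to 2.38), and 13.6 and 64.7 CPM in the Ear2 and Retnla led one (4.75, 2.81 to 8.44, on 18 and 75 UMIs). In the Ear2 and Retnla led cells the summed immediate early and heat shock genes were 5616 CPM in Ctrl and 10280 CPM in dKO, and their part in the Osm ratio was not tested. The ratio was 0.9746 (0.702 to 1.35) in the Arl5c and Ccrl2 led sub-cluster. Neutrophil markers were enriched in the Vcan and Chil3 led sub-cluster too (S100a8, S100a9 and Mmp8), and the 8 of them summed to 1004 CPM in Ctrl and 323 CPM in dKO there, against 21390 and 373 CPM in the S100a9 led one and at most 139.5 CPM elsewhere. Their part in the Osm ratios was not tested. The log2 ratio of Osm in the class was 0.50 with equal sub-cluster shares and 0.54 as a mean of cells' own CPM, both under 1.5-fold.

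Socs3 was higher in dKO in 8 of 8 MO/MP-like sub-clusters, and the counting interval of the ratio left out 1 in 6 of them. The 2 exceptions were the Lyve1 and Cd163 led cells, with 96.5 CPM in Ctrl and 104 CPM in dKO (ratio 1.08, 0.815 to 1.43), and the S100a9 led cycling cells (1.48, 0.869 to 2.47). The level was 104 CPM in Ctrl (90.3 to 120) and 284 CPM in dKO (256 to 314) in the Arl5c and Ccrl2 led sub-cluster, 125 and 259 CPM in the Vcan and Chil3 led one, and 128 and 452 CPM in the Osm and Nr4a1 led one (ratio 3.54, 2.52 to 5.06). The summed immediate early and heat shock genes were also higher in dKO in 7 of the 8 sub-clusters. Beside the Ear2 and Retnla led one, given above, they were 14120 CPM in Ctrl and 19420 CPM in dKO in the Lyve1 and Cd163 led one, 13980 and 18330 CPM in the Calhm6 and Ifit3 led one, 8251 and 9675 CPM in the Vcan and Chil3 led one, 4704 and 5753 CPM in the Rnf128 and Spp1 led one and 6074 and 6600 CPM in the Arl5c and Ccrl2 led one. The exception was the S100a9 led one, with 6682 and 3919 CPM, and the part of these genes in the Socs3 levels was not tested.

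Lifr among MO/MP-like cells was highest in the Lyve1 and Cd163 led sub-cluster, at 152 CPM in Ctrl (130 to 176) and 166 CPM in dKO (142 to 193), with a ratio of 1.10 (0.879 to 1.37). Larger ratios were found at lower levels, with 29.5 and 63.4 CPM in the Arl5c and Ccrl2 led one (2.15, 1.51 to 3.07), 17.4 and 39.7 CPM in the Ear2 and Retnla led one (2.28, 1.35 to 3.94) and 5.31 and 11.6 CPM in the Rnf128 and Spp1 led one (2.18, 1.11 to 4.32). In the Osm and Nr4a1 led sub-cluster Lifr was 34.0 CPM in Ctrl (12 UMIs) and 21.7 CPM in dKO (7 UMIs). With equal sub-cluster shares the log2 ratio of Lifr in MO/MP-like cells was 0.48, under 1.5-fold. The interval of the Il6ra ratio held 1 in 7 of 8 sub-clusters, with ratios up to 1.30 (0.891 to 1.88, in the Rnf128 and Spp1 led one), and the gene was lower in dKO in the S100a9 led cycling cells (42.5 and 19.6 CPM, ratio 0.463, 0.229 to 0.855).

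**Figure D4:**
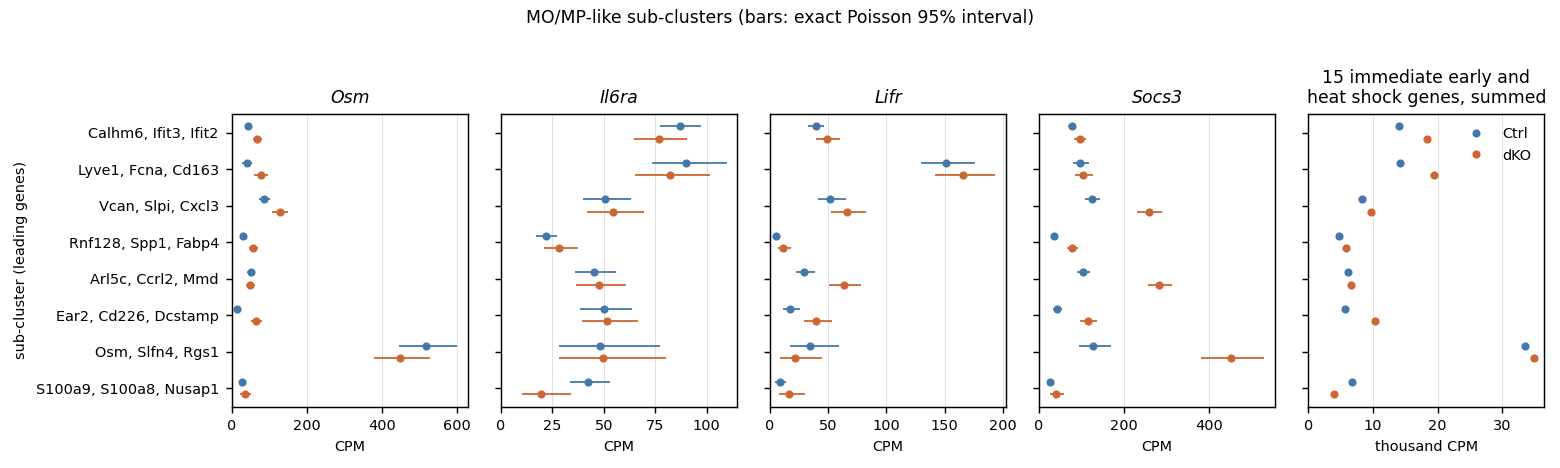
Levels in CPM of Osm, Il6ra, Lifr and Socs3 (linear horizontal axes from 0, bars the exact Poisson 95% interval) and the summed level of 15 immediate early and heat shock genes on an axis of its own, in 8 MO/MP-like sub-clusters named by their first leading genes, for Ctrl (blue) and dKO (orange). Osm peaks in the row it leads (518 and 448 CPM), Lifr in the Lyve1 led row, and the dKO points of Socs3 lie to the right of Ctrl in each row.

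Around these members, 39 further pathway genes were read from fixed lists (Junb is also among the immediate early genes), and 31 of them had at least 50 UMIs in FAP-like cells. There 7 were past 1.5-fold higher and 0 lower, with a median log2 ratio of 0.15, beside the 3.29% and 4.2% of all genes given above. Of 15 targets often induced through STAT3, 4 were higher and 0 lower in FAP-like cells. The acute phase genes Hp (haptoglobin, 9.18 and 65.5 CPM, ratio 7.14, 6.01 to 8.54) and Saa3 (serum amyloid A3, 8.74 and 31.2 CPM, ratio 3.57, 2.95 to 4.33) were past 2-fold. So was the ligand Il11, another user of gp130, at 5.24 CPM in Ctrl (84 UMIs) and 14.1 CPM in dKO (234 UMIs), a ratio of 2.69 (2.08 to 3.49). Stat3 itself had a ratio of 1.07 (1.01 to 1.13) in FAP-like cells. Some list genes under 2-fold are named here and for MO/MP-like cells after their values were seen. Cntfr, the receptor that Clcf1 uses, was 7.99 and 13.5 CPM (ratio 1.69, 1.35 to 2.11).

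In MO/MP-like cells 28 of the 39 had at least 50 UMIs, of which 5 were past 1.5-fold higher and 5 lower, beside 4.88% and 6.37% of all genes. The STAT3 targets among them were split, with 2 of 15 higher and 4 lower. The genes higher included the inhibitor Socs1 (6.42 and 11.4 CPM, ratio 1.77), and Stat3 was 102 and 153 CPM (1.49, 1.39 to 1.61). The 4 genes past 2-fold were all lower: Lcn2 (lipocalin 2, 142 and 3.03 CPM, ratio 0.0214), Saa3 (79.1 and 32.0 CPM, 0.404), Hp (57.0 and 24.2 CPM, 0.424) and Lbp (6.02 and 2.82 CPM, 0.468). Lcn2 and Hp are also genes of neutrophil granules, and Hp was 1255 CPM in Ctrl and 670 CPM in dKO in neutrophil-like cells. The neutrophil markers were lower in MO/MP-like cells too, as given above, and their part in the levels of these 4 genes was not tested. In EC-like cells, 3 of 22 were past 1.5-fold higher and 1 lower, beside 5.81% and 11.1% of all genes. Hp and Saa3 were higher in dKO in FAP-like cells and lower in dKO in MO/MP-like cells, the latter with the limit on neutrophil markers just given.

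Genes whose levels over the 10 classes and 2 libraries (20 points) most resembled those of a ligand were named by Pearson's r of log2 levels over 9383 genes, as a description, since points of 1 library share its depth and handling. For Il6 these were Sparcl1 (0.963), Igfbp7 (0.951) and Tspan9 (0.946), for Lif Il1rl1 (0.823), Nmb (0.822) and Penk (0.787), and for Osm Itgam (0.964), Ebi3 (0.962) and Rgs18 (0.953). Il1rl1 is the receptor of IL-33 and Itgam the integrin chain CD11b of myeloid cells.

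Summed over all classes of the kept cells, where a change in cell numbers and a change in level per cell cannot be told apart, Il6 was 96.7 CPM in Ctrl and 131 CPM in dKO (ratio 1.36), Lif 12.4 and 24.1 CPM (1.95), Osmr 57.6 and 77.7 CPM (1.35) and Lifr 66.5 and 52.8 CPM (0.795). Il6ra was 27.9 and 28.5 CPM (1.02, 0.932 to 1.11). The cells removed by doublet score, which these sums leave out, had Il6 the other way round. It was 193 CPM in Ctrl (891 UMIs) and 124 CPM in dKO (408 UMIs) there. The FAP-like class, whose share of cells was 28.1% and 38.3%, held 51.1% of Il6st, 64.5% of Osmr and 56.0% of Socs3 UMIs in Ctrl and 73.6%, 86.2% and 71.6% in dKO. For Lifr the FAP-like share of UMIs was 45.3% and 48.3%, and the MO/MP-like share 18.6% and 31.4%.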

How the data were processed

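Gene by cell UMI counts were deposited by the authors, 1 matrix per library, as raw counts. Per the labels' processing notes and the study's methods they came from Cell Ranger 7.0.0 on mm10, while the matrix header gives software version 3.0.2, and the difference could not be settled. Live mononuclear cells had been sorted and red cells lysed before capture. No mitochondrially encoded symbol is in the tables, so no mitochondrial filter could be applied. Cells with under 500 genes were removed (192 Ctrl, 154 dKO), leaving 4335 and 3329 cells. These equal the cell numbers in the study's text, which gives them as left after its own filters and doublet removal, so the deposited cells may already lack doublets, which could not be settled. The minimum of 200 genes and 1000 UMIs in the study's results section left 4295 and 3306 of the 4527 and 3483 deposited cells. Its methods section gives 500 genes instead, the minimum used here.

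Scrublet's own threshold (scanpy 1.11.5, 30 components) called 4 Ctrl and 14 dKO cells, 0.092% and 0.421%, too few for a working call unless doublets were already gone. The top 7.5% by doublet score were removed per library (325 and 250), and values with these cells kept are an alternative. Of cells tied at that limit (52 and 28), 33 and 10 were removed in barcode order. Libraries were integrated and clustered with Seurat 5.3.0 (R 4.3.3, 2000 variable genes less any of 48 family and pathway genes, 40 dimensions, resolution 0.8; sub-clusters 20 dimensions, resolution 0.4). Clusters were named from marker lists of at least 3 enriched genes, and cycling clusters were joined to their class. The study's own annotation was not used here, and class shares may differ for that reason.

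Counts were summed per class and library, with n = 1 library per group, so no test was run. Intervals and floors of 3 counts cover counting error only, since pooled mice are 1 sample. Ratios need at least 20 UMIs over both libraries, and counts past 1.5-fold at least 50. The ratios and the coverage of their intervals were tested on simulated counts.

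Members and lists were chosen with earlier results of these data known. The members are named throughout, other pathway genes come from fixed lists with values for those past 2-fold in FAP-like or MO/MP-like cells, and the 3 nearest genes by Pearson's r of log2(CPM + 10), among genes with at least 500 UMIs, are named for 3 ligands. Alternatives changed the doublet and gene filters, integration, resolution, variable genes, scaling, weighting of cells, leading cells, depth and the UMI minimum. Promoter windows are from RefSeq, and gene positions from GENCODE M21. Some genes of the lists are not reported here.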

Additional observations from a re-analysis of the deposited data

Results flagged for a closer look

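Ratios of dKO to Ctrl on opposite sides of 1, with counting intervals that leave out 1, were seen for 6 members between cell classes, and the differences between classes were not tested, since each class has 1 library per group. The share of all genes that meet this rule was not counted, so the number of members is not read as a trait of the family. Il6 had a ratio of 1.25 in FAP-like and 0.368 in tenocyte-like cells. Lif had 1.83 in FAP-like and 0.677 in MO/MP-like cells, where the interval reached 0.998. Without the S100a9 and S100a8 led sub-cluster the log2 ratio of -0.56 in MO/MP-like cells was -0.27. Il6st had 1.17 in FAP-like and 0.507 in smooth muscle/pericyte-like cells, where the log2 ratio of -0.98 was -0.07 with doublets kept. Osmr had 1.29 in FAP-like and 0.256 in MO/MP-like cells. Lifr had 1.63 in MO/MP-like and 0.609 in FAP-like cells. Socs3 had 1.19 in FAP-like and 0.724 in tenocyte-like cells, where the log2 ratio of -0.47 was -0.14 with doublets kept.

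Osm was also present in cells left out of the main comparisons because they had under 500 genes. In the 154 dKO cells of that kind it was 166 CPM (19 UMIs) and in the 192 Ctrl cells 64.2 CPM (9 UMIs), a ratio of 2.59 (1.12 to 6.50). Neutrophil-like cells, the class with the highest Osm level, were also the shallowest of the 10 compared in dKO (median 1664 UMIs), and whether the cells left out include neutrophils was not tested. In the cells removed by doublet score Osm went the other way, with 25.3 CPM in Ctrl (117 UMIs) and 16.65 CPM in dKO (55 UMIs).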

How the results depend on the processing

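No paired analysis was possible because the labels give no replicate numbers and each group is 1 library, for which no replicate could be left out either. Over 55 log2 ratios and 538 values under alternatives, 505 stayed within the counting interval of the ratio, 33 moved beyond it, and no called ratio changed sign. Ratios under 1.5-fold did turn, such as Il6 in smooth muscle/pericyte-like cells with doublets kept (-0.31) and Il6st in MO/MP-like cells when thinned (-0.26). Lif in FAP-like cells ranged from 0.68 to 0.93 and was past 1.5-fold under 11 of 11 alternatives, and Lifr there from -0.93 (thinned to 2000 UMIs) to -0.65, also under 11 of 11. In MO/MP-like cells Socs3 was past 1.5-fold under 12 of 12, at 0.82 as a mean of cells' own CPM, 0.97 thinned and 0.98 with equal sub-cluster shares. Lifr there was under 1.5-fold as a mean of cells' own CPM (0.41) and with equal sub-cluster shares (0.48), and so was Osm (0.54 and 0.50). Members past 1.5-fold lower in FAP-like cells numbered 1 in place of 2 with doublets kept, without the leading cell, and thinned. Members higher in MO/MP-like cells numbered 1 in place of 3 as a mean of cells' own CPM and with equal shares. Members lower in MO/MP-like cells numbered 2 in place of 0 with doublets kept, thinned, and with equal shares, and 1 with cells of at least 200 genes, as a mean of cells' own CPM, without the leading cell, with a minimum of 20 UMIs, and without the sub-cluster high in immediate early genes. In EC-like cells 1 in place of 0 was higher when scaled to the median ratio, thinned, and with a minimum of 20 UMIs. The alternatives on sub-clusters were chosen after seeing the data. The cause of these shifts was not tested. The 30 dKO MuSC-like and 36 dKO neutrophil-like cells limit what can be read of members there.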

Other observations

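Among cell classes too small to compare, Perineurial and Schwann-like cells (35 Ctrl and 19 dKO cells) had Il6 at 213 CPM in Ctrl (158 to 282) and 668 CPM in dKO (524 to 840), where 29 of the 73 dKO UMIs were in 1 cell. Their Lif level was 126 CPM and 147 CPM, on 29 and 16 UMIs, 20 of the 29 in 1 Ctrl cell. Il6st was 270 CPM (207 to 346) and 449 CPM (332 to 593) in the same cells, and Socs3 861 CPM (745 to 989) and 330 CPM (231 to 456), while the 15 immediate early and heat shock genes summed to 35930 and 16120 CPM.

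Outside the classes for which genes past 2-fold were to be named, some pathway genes also stood apart, and they were chosen after their values were seen. In tenocyte-like cells Lcn2 was 43.1 CPM in Ctrl and 147 CPM in dKO (ratio 3.40, 2.51 to 4.65), and Saa3 had 101 UMIs in Ctrl (66.0 CPM) and 0 UMIs in dKO, where 3 UMIs would be 3.39 CPM. In dendritic cell-like cells Ebi3, a subunit of IL-27, was 14.4 and 43.1 CPM (2.999, 1.62 to 5.84).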
